A study of Mus musculus with 15 samples.

Results

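Whole mouse embryos of the Apela knockout strain NEO-OUT were compared with wild-type embryos at embryonic day 7.5 by RNA sequencing of each embryo on its own. The comparison held 6 NEO-OUT embryos, numbered 7 to 12, and 3 wild-type embryos, numbered 1 to 3, which are 9 of the 15 embryos sequenced and were chosen by genotype alone. Of the 45232 genes in the deposited table, 16404 had a mean normalized count of at least 10 over the 9 embryos and were tested. All embryos had a mixed C57Bl6 and CD-1 background, per the labels. The NEO-OUT embryos were bred from parents that were both homozygous for the knockout, so their genotype follows from the cross and was not assayed. Both groups were matched in stage by their morphology, and each library holds embryonic and extraembryonic tissue together. The labels do not describe the NEO-OUT allele or how it differs from NEO-IN, the other Apela knockout strain of the study. The 6 NEO-IN embryos, numbered 1 to 6, entered the fit to share its estimate of the spread and served for a direct contrast of NEO-OUT with NEO-IN. Litter and batch are not given in the labels.

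Apela, also known as Elabela or Toddler, encodes a small secreted peptide that binds the apelin receptor Aplnr, a G protein-coupled receptor shared with the peptide apelin (Apln). During gastrulation, epiblast cells move through the primitive streak to form mesoderm and endoderm, and apelin receptor signalling is known from zebrafish to guide the movement of these cells and the making of the heart. In human embryonic stem cells the same peptide supports survival and growth. Heat shock proteins, the unfolded protein response of the endoplasmic reticulum and the transcription factor p53 are general stress systems that act in most cell types, including those of the early embryo.

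The libraries held 55.1 M to 61.0 M recovered reads in wild-type and 54.2 M to 61.3 M in NEO-OUT, and 20569 to 21059 genes were detected in each. A few embryos stood apart from their group. NEO-OUT 9 and 12 held 8465 and 7991 reads of Y-linked genes, against 0 to 4 in the other 7 embryos, so both sexes were present in NEO-OUT and the wild-type embryos were of 1 sex. NEO-OUT 9 also held RNA of macrophage genes, with a summed normalized count of 4555 over 12 markers against 165 to 230 in the other 8 embryos. Its lysozyme gene Lyz2 counted 3685, against at most 41.1 elsewhere. Genes of the maternal decidua, the tissue around the implanted embryo, summed to 19154 to 20555 in wild-type and 18037 to 20328 in NEO-OUT. Of these 11 genes, Prl8a2 and Lum had a mean under 10. Whether the sum measures maternal tissue was not tested. NEO-OUT 10 had the lowest level of mesoderm and Hox genes of the 9, as described further on. In RNA from whole embryos, fewer cells of a type and less RNA per cell cannot be told apart.

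Apela itself was measured before any other gene, as a check of the labels. Apela (ENSMUSG00000079042.6, protein-coding, minus strand of chromosome 8 from 65028417 to 65037336 in GRCm38) had normalized counts of 2004, 1902 and 1082 in wild-type embryos 1, 2 and 3. In NEO-OUT the lowest count was 50.6, the median 60.6 and the highest 107. All 6 NEO-OUT embryos lay below all 3 wild-type embryos, and the level fell from 1663 ± 505 (SD, n = 3) to 69.6 ± 21.6 (SD, n = 6). This was a 23.6-fold decrease (log2 change of -4.56 with an SE of 0.35, limma adjusted p = 6.0e-07), and the call held in each of the 9 fits that left out 1 embryo. Reads of Apela thus remained in NEO-OUT, and they were above the 5.83 to 25.9 of the 6 NEO-IN embryos (log2 fold change of NEO-OUT against NEO-IN 2.60, limma adjusted p = 2.08e-05). Neither partner of Apela passed the test. The other ligand, Apln, counted 7859, 8600 and 7566 in wild-type and 7050 to 8954 in NEO-OUT, and the receptor Aplnr counted 9178, 9633 and 9522 against 7874 to 9623. Both genes overlapped between the groups (limma adjusted p = 0.732 for Apln and 0.219 for Aplnr).

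Across the genome, 1039 of the 16404 genes were called different (6.33% of those tested), 548 higher in NEO-OUT (3.34%) and 491 lower (2.99%). A gene was called when its limma p, adjusted by Benjamini-Hochberg over all genes tested, was under 0.05. Most changes were small. The median called gene changed 1.3-fold, 723 (69.6%) changed by under 1.5-fold, 160 changed by 2-fold or more, and 55 by 4-fold or more. The groups did not overlap in 923 of the called genes (88.8%), against 13.7% of all genes tested. The call held in each of the 9 fits that left out 1 embryo for 220 genes (21.2%). The plot of all genes tested shows the few large changes standing out from many small ones.

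**Figure D1:**
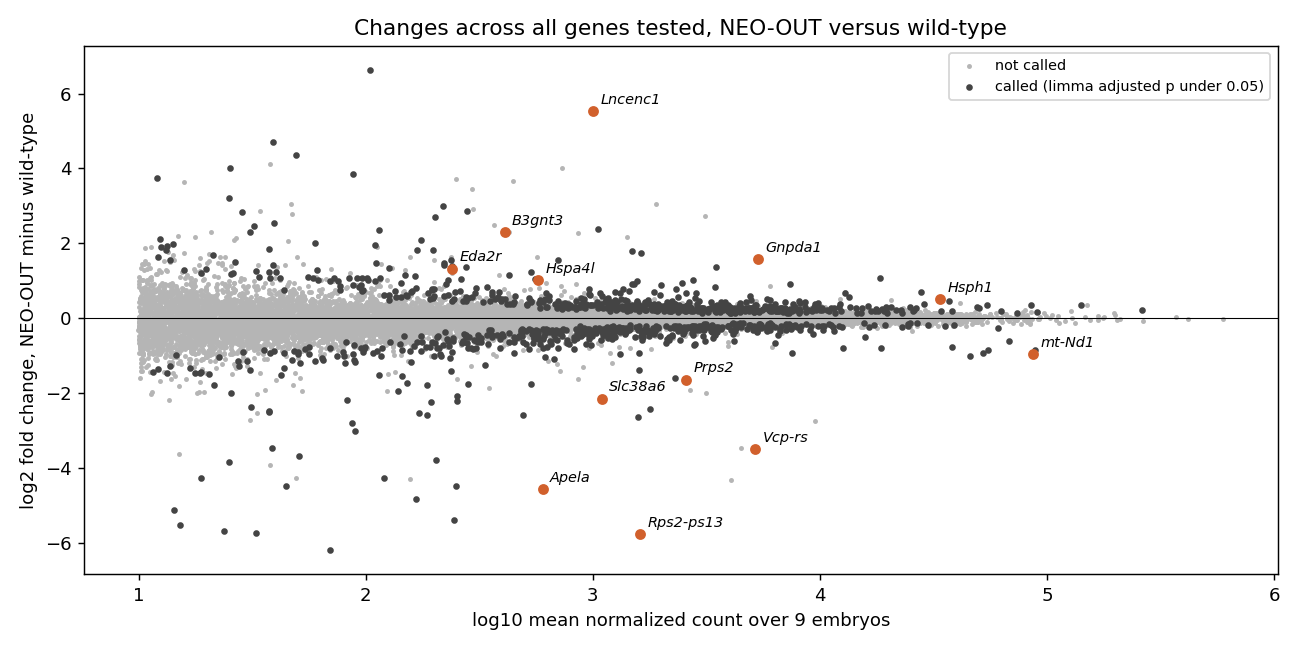
Log2 fold change of NEO-OUT against wild-type (vertical axis) for each of the 16404 genes tested, against the log10 of the mean normalized count over the 9 embryos (horizontal axis). Grey points were not called, dark points were called (limma adjusted p under 0.05) and orange points carry names. Lncenc1 lies highest among the named genes at 5.53 and Rps2-ps13 lowest at -5.77.

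Some of the heat shock genes rose in NEO-OUT. Of the 14 heat shock proteins and co-chaperones listed, all tested, 7 rose, none fell and 12 had positive fold changes, with a median log2 fold change of 0.31 against -0.00 for all genes tested. Of all 16404 genes tested, 3.34% rose, 2.99% fell and 8147 had positive fold changes. The gene lists were chosen with earlier results of these data known, so such shares describe the lists and do not test them. All 6 NEO-OUT embryos lay above all 3 wild-type embryos for 10 of the 14, against 7.0% of all genes. The summed count of the list, set mostly by its most abundant members, was above all wild-type embryos in 4 of 6 NEO-OUT embryos. The members that changed most firmly were Hspa4l, Hsph1, Chordc1 and Dnaja1, each of which kept its call in all 9 fits without 1 embryo.

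Hspa4l and Hsph1 encode large relatives of the Hsp70 chaperones that act as nucleotide exchange factors for Hsp70. Hspa4l had normalized counts of 298, 360 and 373 in wild-type and a lowest, median and highest count of 603, 702 and 786 in NEO-OUT. The groups were far apart, and the gene rose 2.01-fold (log2 change of 1.01 with an SE of 0.10, limma adjusted p = 1.75e-05). Hsph1 had counts of 25481, 27383 and 26167 in wild-type and of 33247, 37368 and 42817 (lowest, median and highest) in NEO-OUT. It rose 1.42-fold with no overlap (log2 change of 0.51 with an SE of 0.06, limma adjusted p = 8.48e-05). Chordc1, a co-chaperone that binds Hsp90, counted 6870, 7291 and 6638 against a NEO-OUT range of 8399 to 10471 and rose 1.36-fold (limma adjusted p = 9.02e-04). Dnaja1, a co-chaperone of the Hsp40 family, counted 15243, 16609 and 15408 against 17679 to 19529 and rose 1.18-fold (limma adjusted p = 0.00374). For all 4 genes every NEO-OUT embryo was above every wild-type embryo.

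The stress-inducible Hsp70 genes Hspa1a and Hspa1b changed by more, at low counts. Hspa1b had counts of 91.4, 69.3 and 55.9 in wild-type and 147, 270 and 325 (lowest, median and highest) in NEO-OUT, a 3.52-fold rise (log2 change of 1.82 with an SE of 0.44, limma adjusted p = 0.0205). Hspa1a had counts of 22.9, 25.7 and 11.2 in wild-type and 57.3, 83.3 and 94.0 in NEO-OUT, a 4.02-fold rise (log2 change of 2.01 with an SE of 0.52, limma adjusted p = 0.0299). Neither gene overlapped between the groups, but the calls depended on single embryos. Hspa1a lost its call without wild-type 1, 2 or 3 (limma adjusted p = 0.0787, 0.0672 and 0.156) or NEO-OUT 9 or 10 (0.0506 and 0.0533). Hspa1b lost it without wild-type 1, 2 or 3 (0.0527, 0.0795 and 0.0970). The 2 genes are near-identical copies whose reads can be split between them in counting, so their separate values are uncertain.

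Hspe1, the mitochondrial chaperonin of the Hsp10 type, was also called, at 1.21-fold (limma adjusted p = 0.0395). It lost the call without wild-type 1, 2 or 3 (0.223, 0.0645 and 0.0670) or NEO-OUT 10 or 12 (0.0573 and 0.0690). The most abundant members did not pass the test. Hsp90ab1, the constitutive Hsp90, had a log2 fold change of -0.01, and the inducible Hsp90aa1 had 0.19 (limma adjusted p = 0.112). Hspa8, the constitutive Hsp70, counted 109137, 113317 and 155897 in wild-type, 173606 to 186881 in NEO-OUT 7 to 10 and 119109 to 124872 in NEO-OUT 11 and 12, so that it split the NEO-OUT embryos (limma adjusted p = 0.135). The list count was 4 without any single wild-type embryo, 5 without NEO-OUT 10 and 5 without NEO-OUT 9 and 12, the embryos with Y-linked reads. At an unadjusted p under 0.05, 11 members were higher and none lower, and edgeR and DESeq2 called 7 and 8 higher and none lower. The share of all genes at that unadjusted p was not counted, here or for the other lists.

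Genes of the unfolded protein response, which raises chaperones of the endoplasmic reticulum, and of the linked integrated stress response made up the second such group. Of 12 listed and tested genes, 4 rose and none fell, with a median log2 fold change of 0.17, and 8 had positive fold changes. That is 33.3% called higher, against 3.34% of all genes tested. This list too was chosen with earlier results of these data known, so the share is descriptive only. Hspa5, the main Hsp70 of the endoplasmic reticulum (also known as BiP), counted 73060, 72643 and 69540 in wild-type and 81992, 91671 and 102258 (lowest, median and highest) in NEO-OUT. Every NEO-OUT embryo exceeded every wild-type embryo, and the gene rose 1.28-fold (log2 change of 0.35 with an SE of 0.06, limma adjusted p = 0.00129). Sdf2l1, a cofactor of Hspa5, counted 1871, 1709 and 1736 against 2284 to 2618 and rose 1.38-fold (limma adjusted p = 0.00193). Xbp1, a transcription factor of the unfolded protein response, counted 6500, 5809 and 5592 against 6653 to 7479 and rose 1.21-fold (limma adjusted p = 0.00335). These 3 genes kept their calls in all 9 fits without 1 embryo. Trib3, a pseudokinase induced by the integrated stress response, counted 170, 202 and 242 against 286 to 452 and rose 1.74-fold (limma adjusted p = 0.0108), but lost its call without wild-type 1 (0.0750). The factor Atf4 of the integrated stress response itself had a log2 fold change of -0.04 and its target Asns, which makes asparagine, had -0.03, and neither was called. At an unadjusted p under 0.05, 7 members were higher and none lower.

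Targets of p53, which arrests or removes damaged cells, were the third group. Of the 18 tested genes of 19 listed, 7 rose, none fell and all 18 had positive fold changes, with a median of 0.17. The share called higher was 38.9%, against 3.34% of all genes tested. It is likewise descriptive only, as the list was chosen with earlier results of these data known. Eda2r, a death receptor relative that binds ectodysplasin A2, counted 106, 139 and 110 in wild-type and 217, 276 and 419 (lowest, median and highest) in NEO-OUT, which did not overlap, and rose 2.50-fold (log2 change of 1.32 with an SE of 0.17, limma adjusted p = 2.26e-04). Ccng1, which encodes cyclin G1, counted 3332, 4258 and 3363 against 4773 to 6436 and rose 1.51-fold (limma adjusted p = 0.00145). Phlda3, an inhibitor of Akt signalling, counted 798, 800 and 700 against 958 to 1454, a rise of 1.58-fold (limma adjusted p = 0.00268). Perp, a membrane protein of desmosomes and of cell death, counted 1755, 1792 and 1776 against 2153 to 2545, a rise of 1.28-fold (limma adjusted p = 0.00347). These 4 kept their calls in every fit without 1 embryo, and the groups did not overlap in any of them. Zmat3, an RNA-binding protein, rose 1.21-fold but lost its call without wild-type 1 or 2 (0.0573 and 0.0567). Trp53inp1, a regulator of autophagy and cell death, rose 1.39-fold and lost its call without wild-type 1 or 3 (0.0955 and 0.0954). Btg2, an inhibitor of proliferation, rose 1.21-fold and lost its call in 7 of the 9 fits (up to 0.246 without wild-type 3). Cdkn1a (p21) and Mdm2, the best known p53 targets, had log2 fold changes of 0.07 and 0.13 and were not called. The list count was 4, 6 and 5 without wild-type 1, 2 and 3, and 6 without NEO-OUT 9, the embryo with macrophage RNA, or without NEO-OUT 9 and 12 together. At an unadjusted p under 0.05, 14 members were higher and none lower, and edgeR and DESeq2 called 6 and 8 higher and none lower.

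**Figure D2:**
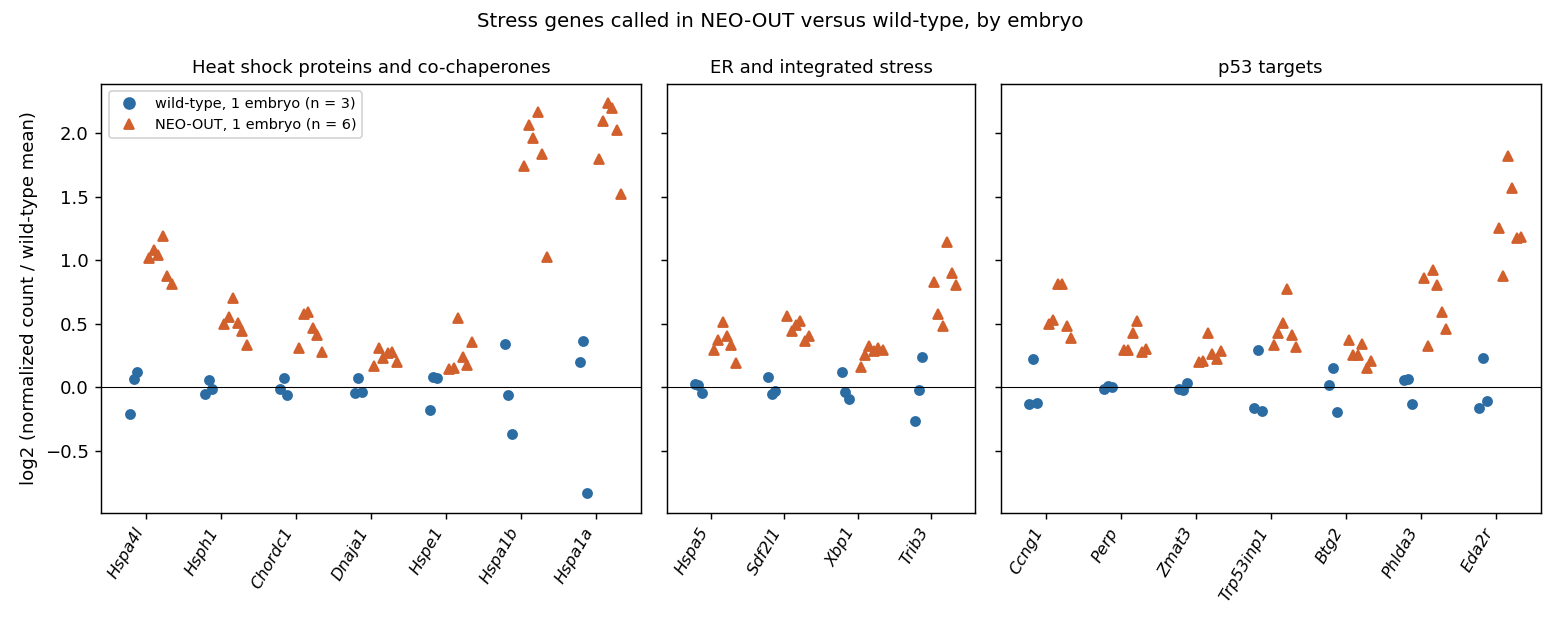
Normalized count of each called stress gene in each embryo, as log2 of its ratio to the wild-type mean (vertical axis), for heat shock genes, genes of the endoplasmic reticulum and integrated stress responses, and p53 targets. Circles are the 3 wild-type and triangles the 6 NEO-OUT embryos; triangles lie above the circles of the same gene, by the widest margin for Hspa1a and Hspa1b (3.52-fold or more between the group means).

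The 250 bases before the start sites of Hspa1b, Hspa5 and Ccng1 are shown because each holds the motif of the factor that is known to drive its group. They come from RefSeq with the build GRCm38.p6 and read 5′ to 3′ on the strand of the gene, with the match in capitals. Hspa1b (chr17:34959239-34959488, minus strand) holds a heat shock element core, GAANNTTC, that starts 104 bases before the start site. Hspa5 (chr2:34771840-34772089, plus strand) holds the endoplasmic reticulum stress response element, CCAAT with CCACG at a fixed spacing, that starts 65 bases before it. Ccng1 (chr11:40755287-40755536, minus strand) holds a p53 decamer that starts 185 bases before it.
Hspa1b: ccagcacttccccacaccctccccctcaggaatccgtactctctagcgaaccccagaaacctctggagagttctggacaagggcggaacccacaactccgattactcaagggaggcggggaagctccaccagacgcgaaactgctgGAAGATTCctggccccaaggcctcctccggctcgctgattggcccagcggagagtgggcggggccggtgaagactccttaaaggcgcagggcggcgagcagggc
Hspa5: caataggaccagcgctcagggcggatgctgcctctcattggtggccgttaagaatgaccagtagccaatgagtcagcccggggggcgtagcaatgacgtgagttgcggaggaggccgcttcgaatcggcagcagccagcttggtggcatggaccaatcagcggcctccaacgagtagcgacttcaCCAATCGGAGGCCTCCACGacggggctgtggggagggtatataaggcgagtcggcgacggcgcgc
Ccng1: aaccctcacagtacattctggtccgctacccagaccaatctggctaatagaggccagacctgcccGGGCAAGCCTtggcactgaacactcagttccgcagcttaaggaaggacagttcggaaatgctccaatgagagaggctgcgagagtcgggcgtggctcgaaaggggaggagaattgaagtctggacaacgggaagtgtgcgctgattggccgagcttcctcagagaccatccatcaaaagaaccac
Both strands were searched in this window. A gene counted as holding a motif when any of its promoters did. GAANNTTC occurs in 7.73% of the 27025 genes with a promoter in the table and in 6 of the 11 heat shock list genes that have a promoter there, namely Dnaja1, Hspa1a, Hspa1b, Hspb1, Hspd1 and Hspe1. The other face of the element, TTCNNGAA, occurs in 8.11% of genes and in 3 of the 11. Since both can overlap in 1 run of repeats, either face occurs in 14.5% of genes and 7 of the 11. The stress element of Hspa5 occurs in 0.13% of genes and in 1 of the 12 genes of its list. The p53 decamer occurs in 8.2% of genes and in 7 of the 13 p53 list genes with a promoter. They are Aen, Bax, Ccng1, Cdkn1a, Ei24, Mdm2 and Polk, and of these only Ccng1 was called against wild-type. The Hspa1a and Hspa1b promoters are identical at 98.8% of 250 bases. Lists of known targets were chosen for such control, so these matches describe the genes and say nothing of binding in these embryos.

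The same genes were then set against NEO-IN directly, in which 2158 of the 16404 genes were called (13.2%). Hspa4l was higher in NEO-OUT than in NEO-IN by 0.93 on the log2 scale (limma adjusted p = 2.05e-06), Hsph1 by 0.44 (2.08e-05), Chordc1 by 0.38 (2.06e-04) and Dnaja1 by 0.20 (0.0021). The 6 NEO-IN embryos counted 328 to 408 for Hspa4l, all below the lowest NEO-OUT embryo at 603. Hspa5, Sdf2l1 and Xbp1 were higher in NEO-OUT than in NEO-IN by 0.22, 0.38 and 0.20 (limma adjusted p = 0.00367, 7.78e-04 and 0.00351), and Trib3 by 1.35 (9.9e-06). In the same list of 12 genes Sesn2, a stress sensor of amino acid supply that the p53 list also holds, was higher than in NEO-IN by 0.23 (limma adjusted p = 0.00283), whereas 2 members were lower. These were Psat1, an enzyme of serine synthesis (NEO-OUT minus NEO-IN -0.14, limma adjusted p = 0.0151), and Dnajb9, a co-chaperone of the endoplasmic reticulum (-0.19, 0.0273, lost in 4 of the 15 fits that left out 1 embryo). None of these 3 was called against wild-type. Among the p53 targets, Eda2r, Ccng1, Perp and Phlda3 were higher in NEO-OUT than in NEO-IN by 0.95, 0.62, 0.40 and 0.40 (limma adjusted p = 2.93e-04, 7.23e-05, 1.06e-04 and 0.00881), Trp53inp1 by 0.59 (3.69e-04) and Btg2 by 0.28 (0.00729). Zmat3 was not (0.04, limma adjusted p = 0.585), nor Hspe1 (-0.17, 0.0796) nor Hspa1a (0.85, 0.210). Hspa8, uncalled against wild-type, was higher than in NEO-IN by 0.47 (limma adjusted p = 0.0104). Hspa1b passed at 1.13 (0.0442) and lost that call in 12 of the 15 fits that left out 1 embryo of any group. Against wild-type, NEO-IN embryos were themselves higher in Hspe1 by 0.44 (limma adjusted p = 0.00349) and in Zmat3 by 0.22 (0.0439). The other called stress genes were not called in NEO-IN, where their log2 fold changes against wild-type ranged from -0.55 (Trib3) to 1.16 (Hspa1a).

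RNA encoded by the mitochondrial genome was lower in NEO-OUT. Of the 13 protein-coding genes of this genome, 7 were in the tested set, and 6 of these fell, with a median log2 fold change of -0.86 over the 7. That is 85.7% called lower, against 2.99% of all genes tested. mt-Nd1, a subunit of respiratory complex I, counted 107436, 119293 and 160268 in wild-type and 54244, 64307 and 78560 (lowest, median and highest) in NEO-OUT, with no overlap. It fell 1.96-fold (log2 change of -0.97 with an SE of 0.18, limma adjusted p = 0.00451). mt-Nd5 and mt-Nd2, of the same complex, fell by 1.02 and 0.92 on the log2 scale, mt-Cytb of complex III by 0.86 and mt-Co1 of complex IV by 0.84 (limma adjusted p = 0.00338 to 0.00783). mt-Nd4 fell by 0.79 (limma adjusted p = 0.0126) and lost its call without wild-type 3 (0.0843). mt-Nd6, encoded on the opposite strand to the others, counted 85.7 on average in wild-type and 88.8 in NEO-OUT and was not called. The 6 protein-coding genes outside the tested set, mt-Nd3, mt-Nd4l, mt-Co2, mt-Co3, mt-Atp6 and mt-Atp8, had mean counts too low for testing. Whether their reads were lost in counting was not tested. Almost none of their RNA is therefore in the share of mitochondrial RNA that follows. That share of the normalized counts was 0.789% to 1.123% in wild-type, highest in embryo 3, and 0.393% to 0.602% in NEO-OUT. The decrease was not seen in the genes of the respiratory chain that the nucleus encodes. Of 19 such genes none was called lower and 1 rose, Sdha of complex II (1.17-fold, limma adjusted p = 0.00568), and their median was 0.04. The share called was 5.26%, against 6.33% of all genes tested. At an unadjusted limma p under 0.05, 1 was lower and 1 higher. DESeq2 called 1 of them lower, and edgeR called none lower. NEO-OUT and NEO-IN did not differ in the 6 mitochondrial genes beyond the threshold (log2 differences 0.15 to 0.28, limma adjusted p = 0.187 to 0.560). The seventh, mt-Nd6, was higher in NEO-OUT than in NEO-IN by 1.01 (limma adjusted p = 0.0494), at 46.9 to 145 against 25.8 to 65.1, and lost that call in 9 of the 15 fits that left out 1 embryo.

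Among the tissues and patterning systems of the gastrula, few genes passed the test in NEO-OUT, and most of those were lower. Of all genes tested, 3.34% were called higher and 2.99% lower. Of 11 anterior neuroectoderm genes 1 fell, Otx2, a homeobox gene of the anterior epiblast and forebrain. Otx2 counted 3037, 3140 and 2778 in wild-type and 2092, 2234 and 2358 (lowest, median and highest) in NEO-OUT. The NEO-OUT embryos lay in a narrow band below wild-type, and the gene fell 1.33-fold (log2 change of -0.42 with an SE of 0.07, limma adjusted p = 0.00243), with the call kept in every fit without 1 embryo. It was also lower than in NEO-IN (NEO-OUT minus NEO-IN -0.24, limma adjusted p = 0.0120). The median of the list was -0.42.

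In the paraxial mesoderm and somite list, 2 of 11 tested genes fell and none rose, with a median of -0.59. That is 18.2% called lower, against 2.99% of all genes tested. Foxc1, a forkhead factor of somite and heart development, counted 1030, 788 and 865 in wild-type and 473, 609 and 675 (lowest, median and highest) in NEO-OUT. It fell 1.51-fold with no overlap (log2 change of -0.59 with an SE of 0.13, limma adjusted p = 0.0118), and lost its call without wild-type 1 (0.0833). Tcf15, a basic helix-loop-helix factor of the somite, counted 279, 249 and 235 against 93.8, 151 and 187 and fell 1.72-fold (log2 change of -0.78 with an SE of 0.18, limma adjusted p = 0.0161). Its call was lost without wild-type 1 or 2 (0.0837 and 0.0600). Both were lower than in NEO-IN as well, at -0.42 for Foxc1 (limma adjusted p = 0.0133) and -0.68 for Tcf15 (0.00566). The median of the list moved to -0.28 without NEO-OUT 10 and to -0.32 without wild-type 1.

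The Hox genes, which switch on in sequence along each cluster during gastrulation, had fold changes below 0 in all 16 tested, with a median of -0.34. Of these, 2 were called, which is 12.5% called lower against 2.99% of all genes tested. Hoxb1 counted 4417, 4171 and 4119 in wild-type, 2989 to 3408 in 5 NEO-OUT embryos and 1744 in NEO-OUT 10, and fell 1.46-fold (limma adjusted p = 0.0354). It lost its call without wild-type 1, 2 or 3 (0.132, 0.104 and 0.0966). Hoxb2 counted 1393, 1263 and 1402 against 710 to 1165 and fell 1.35-fold (limma adjusted p = 0.0354), losing its call in 5 of the 9 fits (up to 0.133 without wild-type 3). The Hox median was -0.21 without NEO-OUT 10 and -0.16 without wild-type 3.

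The heart, retinoic acid and Notch lists each held 1 or 2 called members. The shares called were 14.3%, 8.33% and 14.3%, against 6.33% of all genes tested. Of 14 cardiac mesoderm genes, Gata4, a zinc finger factor of heart and endoderm, rose 1.17-fold, at 8134, 7767 and 8100 in wild-type and 8291 to 10454 in NEO-OUT (limma adjusted p = 0.0211). Tbx5, a T-box factor of the heart field, fell 1.88-fold, at 160, 127 and 128 against 45.8 to 114 (limma adjusted p = 0.0470). Gata4 lost its call without wild-type 1, 2 or 3 (0.0642, 0.103 and 0.0620) and Tbx5 in 6 of the 9 fits (up to 0.179 without wild-type 1). Crabp1, which binds retinoic acid in the cytoplasm, was the only called gene of 12 in the retinoic acid list. It fell 1.49-fold, from 3176, 2955 and 3104 to 1422 to 2661 (limma adjusted p = 0.0312), and lost its call in 4 of the 9 fits (up to 0.117 without wild-type 1). Of 14 Notch pathway genes the receptors Notch1 and Notch3 fell 1.30-fold each (limma adjusted p = 0.0205 and 0.00714). Notch1 lost its call without wild-type 1 or 3 (0.112 and 0.0623) and Notch3 without wild-type 1 (0.0609).

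Fibronectin, Fn1, the matrix protein on which mesoderm migrates, fell 1.20-fold, from 65656, 67757 and 71390 to a NEO-OUT range of 53986 to 61649 (log2 change of -0.26 with an SE of 0.05, limma adjusted p = 0.00449). The groups did not overlap and the call held in every fit without 1 embryo. In the same list of 12 genes of epithelial-mesenchymal transition, the repressor Snai2 fell 1.41-fold (limma adjusted p = 0.0460) and lost its call in 7 of the 9 fits (up to 0.176 without wild-type 1). The share of this list called lower was 16.7%, against 2.99% of all genes tested. None of the 16 primitive streak genes, 10 epiblast genes, 13 endothelial genes, 12 Nodal pathway genes, 12 globin and haem genes or 23 imprinted genes was called. At an unadjusted limma p under 0.05 the number lower and higher was 0 and 0 for the primitive streak, epiblast and Nodal lists, 3 and 0 for the endothelial, 1 and 1 for the globin and 2 and 3 for the imprinted genes. edgeR called none of these genes, and DESeq2 called 1 endothelial and 1 globin or haem gene lower. All 6 NEO-OUT embryos lay below all 3 wild-type in 1 of the primitive streak genes, against 6.71% of all genes tested.

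NEO-OUT 10 had the lowest score in several of these lists. A list score is the mean over its members of the log2 value, centred on the 9 embryos. The Hox score of NEO-OUT 10 was -0.92, against -0.17 to 0.28 in the other 5 NEO-OUT and -0.08 to 0.53 in the wild-type embryos. Its retinoic acid score was -0.82 and its paraxial mesoderm score -0.78, while its epiblast score was the highest of the 9 at 0.62 and its Nodal score the highest at 0.72. Single genes showed the same. Aldh1a2, which makes retinoic acid in mesoderm, counted 846 in NEO-OUT 10 and 5164 to 7534 in the other NEO-OUT embryos, against 7125 to 8612 in wild-type. Cdx1, a regulator of Hox genes, counted 471 in it and 1992 to 6670 in the others, and Meox1, a homeobox gene of somites, 41.6 and 209 to 1237. NEO-OUT 11 and 12 were lower than NEO-OUT 7 and 9 in all 3 of these genes. None of them was called (limma adjusted p = 0.358, 0.480 and 0.276), and they were named here after their values were seen. The plots of list scores and of axis genes show NEO-OUT 10 apart in the Hox and mesoderm genes. Its heat shock and p53 scores were the highest of the 9 embryos, at 0.32 and 0.19, and its unfolded protein score of 0.07 lay among the 0.03 to 0.10 of NEO-OUT.

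**Figure D3:**
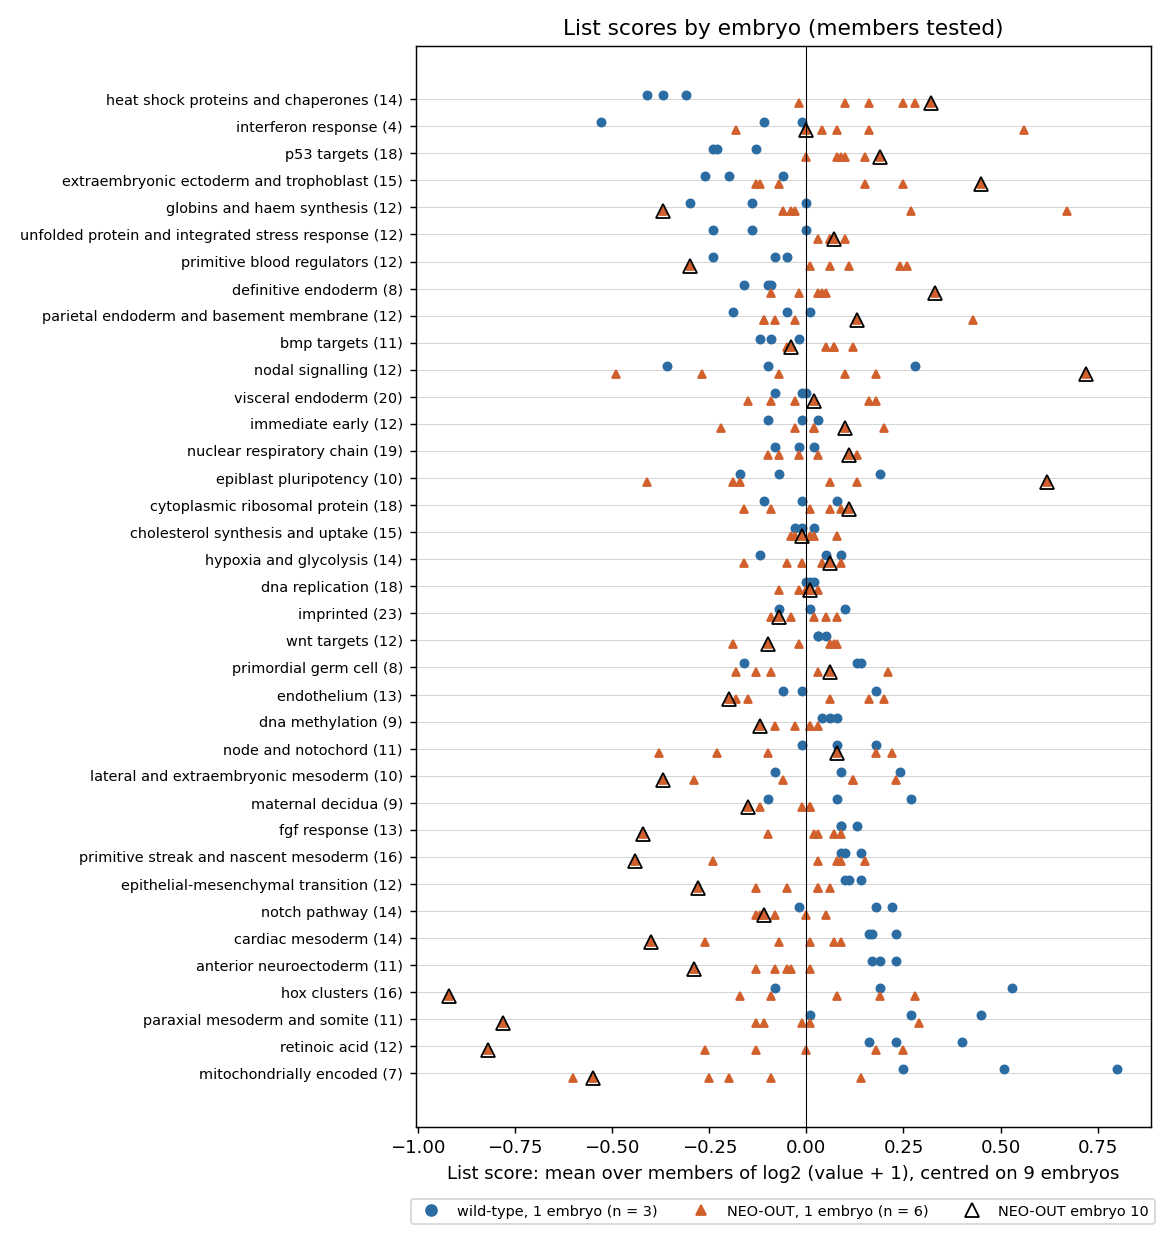
Score of 37 gene lists in each embryo, in log2 units centred on the 9 embryos (horizontal axis), with the lists ordered by the difference of group means and the number of genes tested in brackets. Circles are wild-type and triangles NEO-OUT embryos, with NEO-OUT 10 outlined; the heat shock list lies at the top with all NEO-OUT embryos above wild-type, and the mitochondrially encoded list at the bottom with all below.

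**Figure D4:**
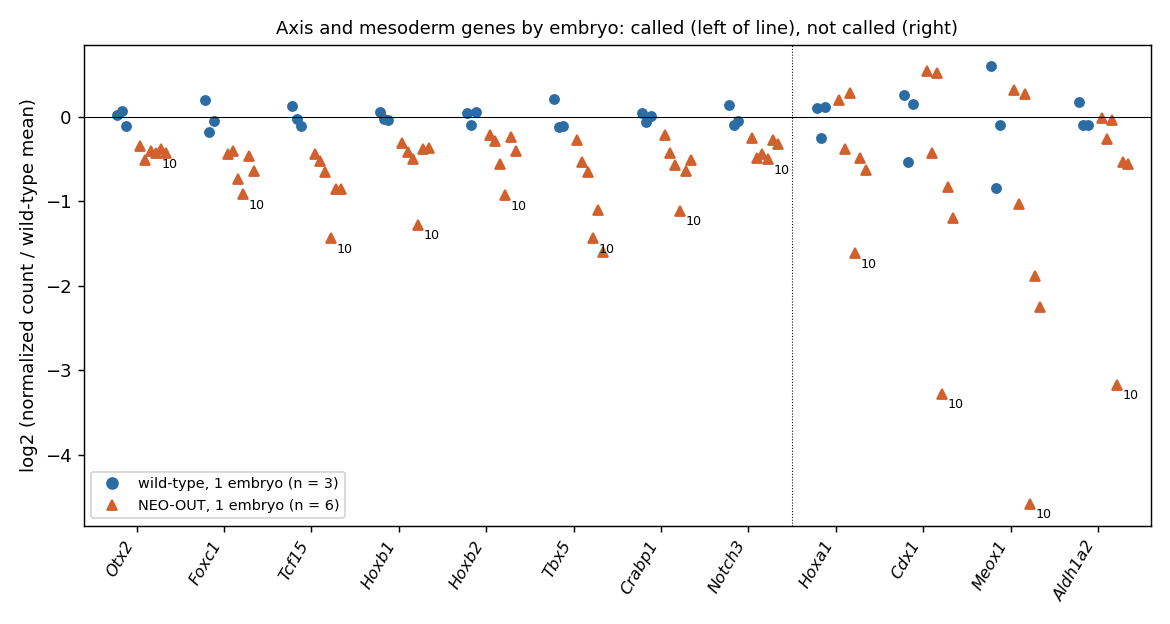
Log2 ratio of the normalized count to the wild-type mean (vertical axis) in each embryo for axis and mesoderm genes, called genes left of the dotted line and uncalled genes right of it. Circles are wild-type, triangles NEO-OUT, and NEO-OUT 10 is marked 10; Otx2 is tight in all 6 NEO-OUT embryos, whereas Cdx1, Meox1 and Aldh1a2 spread widely with NEO-OUT 10 lowest.

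The extraembryonic tissues changed in few genes. Of 20 visceral endoderm genes, 2 rose and 1 fell, with a median of 0.11. The share called was 15.0%, and 6.67% in the trophoblast list, against 6.33% of all genes tested. Ttr, which encodes the thyroid hormone carrier transthyretin, counted 27810, 27684 and 32723 in wild-type and 33279, 41034 and 46959 (lowest, median and highest) in NEO-OUT. It rose 1.37-fold (limma adjusted p = 0.0135), was higher than in NEO-IN by 0.54 (limma adjusted p = 4.76e-04), and lost its call against wild-type without wild-type 1 or 2 (0.0744 and 0.0767). Apoa1, an apolipoprotein, rose 1.27-fold (limma adjusted p = 0.0470), and lost its call in 8 of the 9 fits (up to 0.218 without wild-type 2). Fgb, the fibrinogen beta chain, fell 1.66-fold, from 3716, 4621 and 3094 to 2042 to 2559 (limma adjusted p = 0.0211), and lost its call without wild-type 1 or 2 (0.0758 and 0.127). The summed count of the visceral endoderm markers was 625862 to 662971 in wild-type and 628524 to 741656 in NEO-OUT, above all wild-type in 4 of 6. Esrrb, an orphan receptor of trophoblast stem cells, was the only called gene of 15 in the trophoblast list (1.27-fold higher, limma adjusted p = 0.0458), and lost its call in 8 of the 9 fits (up to 0.196 without wild-type 1). The trophoblast markers summed to 45867 to 53919 in wild-type and 45622 to 60565 in NEO-OUT.

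Housekeeping systems differed in 1 or 2 listed members each. The shares called were 5.56% for ribosomal proteins, 14.3% for hypoxia and glycolysis and 13.3% for cholesterol genes. Among all genes tested the share was 6.33%. Rplp1, a protein of the ribosomal stalk, counted 81025, 101763 and 81725 in wild-type and 51813, 58345 and 62132 (lowest, median and highest) in NEO-OUT. It fell 1.52-fold with no overlap (log2 change of -0.60 with an SE of 0.08, limma adjusted p = 2.4e-04), kept its call in every fit without 1 embryo, and was also lower than in NEO-IN (NEO-OUT minus NEO-IN -0.43, limma adjusted p = 3.44e-04). The other 17 ribosomal protein genes were not called, and the median of the 18 was 0.03. Slc2a3, a glucose transporter, rose 1.16-fold (limma adjusted p = 0.00614) with its call kept in every fit, whereas hexokinase 2, Hk2, fell 1.15-fold (0.0330) and lost its call in 5 of the 9 fits (up to 0.204 without wild-type 1). In cholesterol metabolism, the synthase Hmgcs1 fell 1.35-fold (limma adjusted p = 0.0118), from 8510, 9339 and 6149 to 5580 to 6065, and lost its call without wild-type 1 or 2 (0.0761 and 0.0867). Its regulator Insig1, which holds the pathway in check, rose 1.22-fold (limma adjusted p = 0.0297) and lost its call in 5 of the 9 fits (up to 0.114 without wild-type 1).

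Targets of signalling pathways and other lists held 1 or 2 called members each. The shares called ran from 7.69% (FGF response) to 16.7% (immediate early), against 6.33% of all genes tested. Ccnd1, the cyclin D1 gene listed as a Wnt target, fell 1.27-fold (limma adjusted p = 0.0325) and lost its call in 5 of the 9 fits (up to 0.138). Spry1, a feedback inhibitor of FGF signalling, fell 1.20-fold (0.0445) and lost it in 7 (up to 0.166). Id1, a BMP target, rose 1.16-fold (limma adjusted p = 0.0170) and lost it without wild-type 1, 2 or 3 (0.0598, 0.0844 and 0.0558). In the immediate early list, Fos rose 1.48-fold (limma adjusted p = 0.0312), losing its call in 6 fits (up to 0.131), and Klf2 rose 1.64-fold (0.0170), losing it without wild-type 2 or 3 (0.0930 and 0.0704). Klf2 lies on chromosome 8 at 7.28 Mb from Apela, so it is also among the called neighbours of Apela that are described further on. Tet3, an oxidase of methylated DNA, fell 1.21-fold (limma adjusted p = 0.0470) and lost its call in 7 fits (up to 0.225). The replication genes Mcm3 and Gins2 fell by small amounts, 1.10-fold (limma adjusted p = 0.0482) and 1.11-fold (0.0437), and lost their calls in 8 fits each (up to 0.221 and 0.184). Lyl1, a factor of primitive blood, rose 1.53-fold (limma adjusted p = 0.0264) and lost its call in 3 fits (up to 0.126). Spink1, a trypsin inhibitor of the endoderm, rose 1.59-fold (limma adjusted p = 0.0314), and Cfap43, a cilium gene of the node list, fell 1.15-fold (0.0485). Their calls were lost in 6 and 8 fits (up to 0.133 and 0.162). Desmin, Des, a muscle filament in the decidua list, fell 1.52-fold (limma adjusted p = 0.0362) and lost its call in 7 fits (up to 0.161).

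Of the increases named here, the largest was in Lncenc1, a long noncoding RNA known from mouse embryonic stem cells. It counted 29.1, 26.7 and 37.3 in wild-type and 1064, 1551 and 1750 (lowest, median and highest) in NEO-OUT, a rise of 46.2-fold (log2 change of 5.53 with an SE of 0.18, limma adjusted p = 1.92e-12). NEO-IN was at 857 to 1469, and the strains did not differ beyond the threshold (0.29, limma adjusted p = 0.199). Gnpda1, a glucosamine-phosphate deaminase, rose 2.97-fold, at 1692, 1754 and 4027 in wild-type and 6135 to 7229 in NEO-OUT (limma adjusted p = 6.21e-04). Rsad1, a radical SAM protein, rose 2.65-fold with no overlap (limma adjusted p = 1.22e-05). Acp1, a low molecular weight phosphatase, counted 1703, 1711 and 1622 against 3116 to 5637 and rose 2.56-fold (limma adjusted p = 0.00532). Bst1, an NAD-metabolising ectoenzyme, rose 2.80-fold, from 49.9, 39.6 and 60.5 to 113 to 189 (limma adjusted p = 5.4e-04), and was higher than in NEO-IN by 0.74 (limma adjusted p = 0.00852). These genes kept their calls in every fit without 1 embryo. Lyrm7, an assembly factor of respiratory complex III, rose 2.91-fold (limma adjusted p = 0.0121), with NEO-OUT 8 and 10 at 188 and 160 and the other 4 at 348 to 379 against 47.5 to 168 in wild-type. It was higher than in NEO-IN by 1.97 (limma adjusted p = 2.05e-04) and lost its call against wild-type without wild-type 2 (0.0852). Gstm6, Fkbp6, Zfp874a, Fcgrt and the pseudogenes Zfp125 and Glns-ps1 rose 2.58-fold to 6.52-fold, and each lost its call without wild-type 1 and at least 1 other embryo (limma adjusted p up to 0.199). For Glns-ps1, NEO-OUT 10 at 37.3 lay beside the 33.3 to 33.7 of wild-type, with the other NEO-OUT embryos at 245 to 560.

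Among the large decreases, those of Slc38a6 and Prps2 set NEO-OUT apart from both other groups. Slc38a6, an amino acid transporter of the solute carrier family, counted 1845, 3249 and 1780 in wild-type and 430, 495 and 555 (lowest, median and highest) in NEO-OUT. It fell 4.45-fold (log2 change of -2.15 with an SE of 0.17, limma adjusted p = 8.21e-07) and, with NEO-IN at 2068 to 3541, was lower than NEO-IN (NEO-OUT minus NEO-IN -2.27, limma adjusted p = 4.24e-08). Prps2, which makes the phosphoribosyl pyrophosphate used in nucleotide synthesis, counted 4371, 5293 and 4467 against 1364, 1504 and 1694. It fell 3.11-fold (log2 change of -1.64 with an SE of 0.07, limma adjusted p = 1.55e-10), and NEO-IN at 4441 to 5134 lay with wild-type (NEO-OUT against NEO-IN -1.72, limma adjusted p = 4.32e-12). Both held in every fit that left out 1 embryo, in both contrasts. Baiap2l1, an adaptor of the actin cytoskeleton, differed in this respect. It fell 3.00-fold, from 3374, 4220 and 4912 to 1119 to 1609 (limma adjusted p = 6.96e-07), and NEO-IN was at 1265 to 1649 (NEO-OUT against NEO-IN -0.02, limma adjusted p = 0.908). Ulk4, a member of the Unc-51-like kinase family, fell 3.39-fold (limma adjusted p = 1.14e-05), and Mov10l1, a helicase of the germline piRNA pathway, fell 3.32-fold (8.47e-04), with calls kept in every fit. Neither differed from NEO-IN beyond the threshold (NEO-OUT minus NEO-IN -0.36 and -0.59, limma adjusted p = 0.0990 and 0.0726). The pseudogene Eif5al3-ps counted 648, 499 and 911 against 15.9 to 41.6 and also kept its call (22.3-fold lower, limma adjusted p = 0.0058; NEO-OUT minus NEO-IN -3.07, 0.00836). Tdpx-ps1, a pseudogene, Triml2 and Lbp, a lipopolysaccharide-binding protein, fell 2.85-fold to 8.13-fold, and 3, 6 and 6 of the 9 fits no longer called them (limma adjusted p up to 0.223). They did not pass the test against NEO-IN either, at -0.82, 1.10 and 0.15 (limma adjusted p = 0.414, 0.0789 and 0.820). Triml2 split the NEO-OUT embryos, at 114 to 126 in NEO-OUT 7, 10 and 11 and 517 to 639 in NEO-OUT 8, 9 and 12. Its wild-type counts were 856 to 958. For Lbp, wild-type 3 at 68.9 lay within the NEO-OUT range of 38.4 to 92.5.

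A set of the steepest decreases was split within a group rather than shifted between groups. The pseudogene Rps2-ps13 counted 8.31 in wild-type 1 but 7548 and 6892 in wild-type 2 and 3, against 9.8 to 22.5 in NEO-OUT and 7213 to 15836 in NEO-IN. The zinc finger gene Zfp979 counted 13.9 in wild-type 2 but 905 and 833 in wild-type 1 and 3, against 9.59 to 20.6 in NEO-OUT. Zfp984, of the same class, counted 94.0 in wild-type 2 and 631 and 608 in the others, against 61.7 to 98.7. In each of these genes 1 wild-type embryo sat at or near the NEO-OUT level. Nr1h5, an orphan nuclear receptor, counted 16.8 in wild-type 3 and 690 and 754 in the others, against 1.91 to 11.8, and the pseudogene Rps26-ps1 counted 424 in wild-type 2 and 5653 and 5818 in the others, against 274 to 482. The reverse split was seen in Vcp-rs, a pseudogene copy of Vcp, which counted 612 to 745 in 5 NEO-OUT embryos but 7949 in NEO-OUT 10, within the 7766 to 14190 of wild-type. All 6 were called lower (limma adjusted p = 0.00292 to 0.0434), and 5 of them lost the call without single embryos. These were wild-type 2 or 3 for Rps2-ps13 (0.127 each), 1 or 3 for Zfp979 (0.120 and 0.116), Zfp984 (0.0642 and 0.0573) and Rps26-ps1 (0.0784 and 0.0742), and 8 of the 9 embryos for Nr1h5 (up to 0.199). Vcp-rs kept it. Of 937 processed pseudogenes tested 40 were called (4.27%), and 34 of these changed by 2-fold or more, against 95 of 956 called protein-coding genes. Reads of such copies can be shared with the parent gene in counting, so their values are uncertain.

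Genes near Apela were called at a higher share than genes elsewhere. Chromosome 8 had 95 called genes of 847 tested (11.2%, Apela included), and genes on other chromosomes 944 of 15557 (6.07%). From 5 to 10 Mb from Apela 30 of 105 genes were called (28.6%), with 14 higher and 16 lower. Within 5 Mb there were 5 of 45 (11.1%), from 10 to 20 Mb 10 of 124 (8.06%), from 20 to 30 Mb 17 of 107 (15.9%), from 30 to 50 Mb 22 of 247 (8.91%), and beyond 50 Mb 10 of 218 (4.59%). The share was therefore highest at some distance from the gene and not beside it. Chromosomes 12 and 13 also had shares above the rest of the autosomes, at 10.6% and 9.98%.

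The neighbours moved in both directions. B3gnt3, a glycosyltransferase 6.65 Mb away, counted 64.4, 75.2 and 262 in wild-type and 436, 552 and 686 (lowest, median and highest) in NEO-OUT, and rose 4.94-fold (log2 change of 2.30 with an SE of 0.30, limma adjusted p = 2.46e-04). Bst2, which encodes tetherin, a membrane protein of antiviral defence, lies 6.50 Mb away. It counted 921, 876 and 1027 against 1403 to 2353 and rose 1.89-fold (limma adjusted p = 1.6e-04), while the other 3 interferon response genes tested were not called. Ocel1, at 6.33 Mb, counted 164, 131 and 96.9 against 40.5 to 79.3 and fell 2.31-fold (limma adjusted p = 0.00423). Pgls, an enzyme of the pentose phosphate pathway at 6.55 Mb, fell 1.58-fold (limma adjusted p = 2.9e-05), Mpv17l2, a mitochondrial membrane protein, fell 1.51-fold (0.0027) and Klhl26 fell 1.43-fold (0.0027). Hmgb2, a chromatin protein of dividing cells, rose 1.31-fold (0.00221), Lpar2, a lysophosphatidic acid receptor, 1.34-fold (0.00114) and Tpm4, a tropomyosin, 1.24-fold (0.0015). These 9 genes kept their calls in every fit without 1 embryo. None of the 9 differed between NEO-OUT and NEO-IN beyond the threshold (log2 differences -0.16 to 0.18), and NEO-IN counted 423 to 538 for B3gnt3 and 1523 to 1717 for Bst2. Closer to Apela, Klhl2 at 0.178 Mb and the chloride transporter gene Clcn3 at 4.05 Mb rose, Klhl2 1.15-fold (limma adjusted p = 0.0314) and Clcn3 1.19-fold (0.00451). Both were higher than in NEO-IN too, by 0.21 and 0.20 (limma adjusted p = 0.00528 and 0.00226). Klhl2 lost its call against wild-type in 5 of the 9 fits (up to 0.157 without wild-type 3). Palld, which encodes the actin-binding protein palladin and lies 3.13 Mb away, was the only lower call within 5 Mb other than Apela. It counted 1218, 1233 and 1149 in wild-type and 881 to 1090 in NEO-OUT, fell 1.20-fold (limma adjusted p = 0.0358) and lost its call in 7 of the 9 fits (up to 0.139 without wild-type 2). It did not differ from NEO-IN beyond the threshold (-0.06, limma adjusted p = 0.560).

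**Figure D5:**
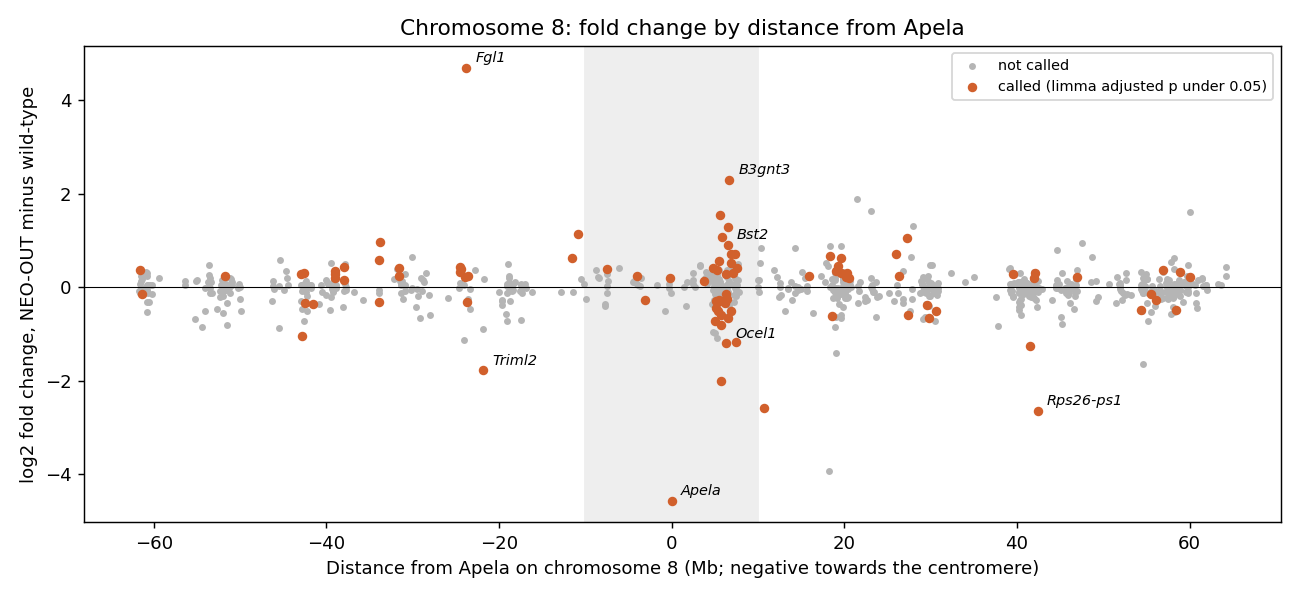
Log2 fold change of NEO-OUT against wild-type (vertical axis) for each gene tested on chromosome 8, against its distance from Apela in Mb (horizontal axis). Orange points were called (limma adjusted p under 0.05) and the grey band spans 10 Mb either side of Apela; called genes crowd on 1 side of Apela between 5 and 10 Mb, some higher and some lower.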

How the data were processed

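RNA was measured in single whole embryos from polyadenylated RNA with TruSeq Stranded mRNA libraries, per the labels' protocols. The authors deposited signal values, gene counts divided by 1 size factor per library, called normalized counts here. The submitters' processing notes list the build mm10 and, with neither versions nor roles, DESeq2, featureCounts, STAR, kallisto and Picard, and whether counting used the strand is not given in the sources used here. Dividing each column by its step gave whole reads for 100.0% of values (within 0.01). Between 76.9% and 79.1% of recovered counts from 1 to 20 were even, so independent fragments may be fewer than reads. A stray letter was dropped from 1 cell. Annotation came from GENCODE M21 (GRCm38), with 98.6% of identifiers matched.

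The 16404 genes with a mean of at least 10 over the 9 wild-type and NEO-OUT libraries were tested in R 4.3.3 by limma-trend (version 3.58.1), in 1 fit of 3 groups and 15 libraries. Values entered as log2 after adding a pseudocount of 1, so fold changes of low genes are understated. Benjamini-Hochberg adjusted p under 0.05 over all genes counted as called. On simulated data for NEO-OUT versus wild-type, 56% of 100 genes changed by 0.5 and 92% of 100 changed by 1 (log2) were called, and 6 of 16204 unchanged genes. The 200 changed genes were drawn from those with a mean of at least 50. On the recovered reads, edgeR 4.0.16 called 1064 genes and DESeq2 1.42.0 called 1628. Other alternatives changed the pseudocount, filter, scaling, variance model and libraries. Python 3.11.15 made the tables.

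Each library is 1 embryo and 1 replicate, and pairs of a group differed by more than sampling noise (chi-square over degrees of freedom 11.5 to 41.2). The labels do not give litters, so p-values measure the spread between these embryos. The 3 wild-type embryos limit every comparison. The members and the 39 gene lists were chosen with earlier results of these data known. Named genes are Apela, Apln and Aplnr, and the 15 largest increases and 15 largest decreases among called genes whose mean is 50 or more, leaving out gene model names, Xist and Y-linked genes. The rule adds up to 5 called members of each list by smallest p, or the 2 smallest p where none was called, and called genes within 10 Mb of Apela with a mean of at least 50. Uncalled members enter mostly through their list. Hspe1, Trp53inp1, Btg2, mt-Nd4 and the uncalled members printed fall outside the rule and were chosen after their values were seen.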

Additional observations from a re-analysis of the deposited data

Results flagged for a closer look

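In the 6 NEO-OUT embryos, 11 of 148 values tested had 1 embryo far from the other 5; chance flags about 1 in 20 such groups. NEO-OUT 10 stood apart in Hoxb1 (normalized count 1744, against 2989 to 3408 in the other 5), Cfap43 (763, against 842 to 887), Klf2 (240, against 160 to 184) and Vcp-rs (7949, against 612 to 745). It also stood apart in the score of the definitive endoderm list (0.33, against -0.09 to 0.05) and of the FGF response list (-0.42, against -0.10 to 0.09). NEO-OUT 9 stood apart in Zmat3 (3006, against 2565 to 2719) and in the macrophage score (4.02, against -0.90 to 0.03). NEO-OUT 8 stood apart in Slc2a3 (255586, against 276946 to 281546) and Dnajb9 (1172, against 952 to 1032), and in Zfp984 (98.7, against 61.7 to 66.6).

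The effects of the strains differed in 57 of 109 genes, by the direct limma contrast of NEO-OUT against NEO-IN (adjusted p under 0.05 over all genes). The 109 hold 102 genes called against wild-type and only some of the uncalled genes that the text names. Uncalled genes that passed the contrast, such as Hspa8 and mt-Nd6, are among those counted. Of all 1039 genes called against wild-type, 513 (49.4%) also passed this contrast, so the share among the 109 is near that of called genes in general. The values that follow are log2 fold changes of NEO-OUT minus NEO-IN. Apela was higher by 2.60. The stress genes that differed were mostly higher in NEO-OUT, namely Hspa4l 0.93, Hsph1 0.44, Chordc1 0.38, Dnaja1 0.20, Hspa1b 1.13, Hspa5 0.22, Sdf2l1 0.38, Xbp1 0.20, Trib3 1.35, Eda2r 0.95, Ccng1 0.62, Phlda3 0.40, Perp 0.40, Trp53inp1 0.59, Btg2 0.28, Hspa8 0.47, Sesn2 0.23, Dnajc3 0.22 and Manf 0.22, while Psat1 was at -0.14 and Dnajb9 at -0.19. The mitochondrially encoded mt-Nd6 was at 1.01. Patterning and signalling genes were mostly lower, namely Otx2 -0.24, Foxc1 -0.42, Tcf15 -0.68, Crabp1 -0.54, Notch3 -0.20, Ccnd1 -0.29, Cfap43 -0.19 and Tet3 -0.32, while Gata4 was at 0.28, Id1 at 0.13 and Klf2 at 0.49. Extraembryonic and blood genes were higher, at 0.54 for Ttr, 0.28 for Apoa1, 0.44 for Esrrb and 0.59 for Lyl1. In metabolism and growth, Sdha was at 0.17, Slc2a3 at 0.11, Insig1 at 0.31, Rplp1 at -0.43, Mcm3 at -0.20 and Gins2 at -0.12. Among the largest changes, Zfp874a was at 1.07, Lyrm7 at 1.97, Bst1 at 0.74, Rps2-ps13 at -9.40, Nr1h5 at -4.85, Eif5al3-ps at -3.07, Zfp979 at -5.49, Vcp-rs at -3.47, Zfp984 at -3.29, Slc38a6 at -2.27 and Prps2 at -1.72. The neighbours of Apela Clcn3 and Klhl2 were at 0.20 and 0.21. Of the 15 fits that left out 1 embryo, the call was lost in 12 for Hspa1b and Id1, 9 for mt-Nd6, 4 for Dnajb9, 10 for Slc2a3, 9 for Notch3, 6 for Apoa1, 4 for Gins2 and 2 for Klf2.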

How the results depend on the processing

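No paired analysis was possible because the wild-type embryos carry the numbers 1 to 3 and the NEO-OUT embryos 7 to 12, so the groups share no replicate number. The total of called genes was 1039, and it was 1597 with array quality weights, 1628 with DESeq2, 672 without the 2 NEO-OUT embryos with Y-linked reads, and 379 to 1223 without 1 of the 9 embryos (379, 416 and 500 without wild-type 1, 2 and 3; 750 without NEO-OUT 10). Within 10 Mb of Apela 35 genes were called, and 16 to 40 without 1 embryo (16 without wild-type 1 or 2). The other settings, edgeR included, gave totals of 803 to 1086. Of the 102 called genes named, none changed direction in any setting run. edgeR kept 98 of the calls, DESeq2 100, the fit of the 9 embryos alone 83, the fit without a trend 75, no filter 82, and the fit without the embryos with Y-linked reads 75. Leaving out wild-type 1, 2 or 3 kept 52, 59 and 64, and leaving out 1 NEO-OUT embryo kept 79 to 93; the cause was not tested. With 3 wild-type embryos, changes of 0.5 on the log2 scale were called in 56% of simulated cases, all with a mean of at least 50. An uncalled gene of that size was thus often not detectable, and genes of lower mean were not simulated as changed. The simulation changed 200 genes, whereas 1039 were called in the data, so its share need not carry over.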

Other observations

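Outside the lists, 2 further genes of the endoplasmic reticulum were looked up after their values were seen. Dnajc3, a co-chaperone of Hspa5, had normalized counts of 7955, 7619 and 8158 in wild-type and 9602 to 10952 in NEO-OUT. It was 1.30-fold higher (log2 change of 0.38 with an SE of 0.05, limma adjusted p = 1.5e-04) and higher than in NEO-IN by 0.22 (limma adjusted p = 0.00112). Manf, a secreted protein of the endoplasmic reticulum stress response, counted 10635, 10266 and 10486 against 12190 to 13733 and was 1.23-fold higher (log2 change of 0.30 with an SE of 0.04, limma adjusted p = 2.86e-04), and higher than in NEO-IN by 0.22 (limma adjusted p = 3.22e-04). Every NEO-OUT embryo lay above every wild-type embryo for both, and both kept their calls in each of the 9 fits without 1 embryo.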
